A study of Mus musculus with 12 samples.

Results

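The steroid hormone metabolising enzymes described here are 8 of the 24475 genes in the deposited RPKM table, chosen by symbol: Cyp17a1, Hsd17b6, Hsd17b2, Hsd17b13, Hsd3b5, Hsd11b1, Srd5a1 and Akr1c6. They were chosen with earlier results of these data known. All 8 passed the filter on low values and were tested, and each was above 0 in all 12 libraries. RPKM scales reads to transcript length and library depth, so levels can be set side by side between genes. Polyadenylated RNA of whole, flash-frozen liver was sequenced from fed mice, in 6 wild-type libraries (WT, numbered 1 to 6) and 6 libraries from mice without Gcg (Gcg KO, numbered 7 to 12). Gcg encodes the precursor of glucagon, and the study asked how its loss affects liver zonation, the division of tasks between hepatocytes along the liver lobule. The labels give no strain, age, sex, batch or date, nor how Gcg was removed. Whether each library stands for its own animal is not stated either, so p-values measure a spread between libraries that may be technical.

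The liver takes up steroid hormones from the blood and changes them at set positions of the steroid skeleton before they are conjugated and excreted. Hydroxysteroid dehydrogenases switch a hydroxyl group to a ketone or back, which turns a hormone on or off, reductases saturate the first ring, and cytochrome P450 enzymes add oxygen. In rodents several of these enzymes differ between male and female liver, because growth hormone is secreted in another rhythm in each sex.

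Promoters, taken as the 250 bases before to 50 bases after an annotated start, were read from RefSeq (GRCm38.p6) for the 6 enzymes that have an entry: Hsd17b6, Hsd17b13, Hsd3b5, Hsd11b1, Srd5a1 and Akr1c6. The 3 printed here differ in base composition. Hsd17b6 is the enzyme of this set that passed the test as higher in Gcg KO, Hsd17b13 carries the 1 match to the core of a cAMP response element, and Srd5a1 has the most CG pairs. Capitals mark CG pairs, the sites at which mammalian DNA can be methylated.
Hsd17b6 (chr10:128007562-128007861, minus strand): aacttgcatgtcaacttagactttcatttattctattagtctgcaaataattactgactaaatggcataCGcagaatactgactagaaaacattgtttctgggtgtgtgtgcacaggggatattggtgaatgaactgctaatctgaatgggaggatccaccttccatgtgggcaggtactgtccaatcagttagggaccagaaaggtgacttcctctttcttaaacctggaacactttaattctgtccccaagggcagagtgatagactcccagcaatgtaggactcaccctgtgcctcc
Hsd17b13 (chr5:103977339-103977638, minus strand): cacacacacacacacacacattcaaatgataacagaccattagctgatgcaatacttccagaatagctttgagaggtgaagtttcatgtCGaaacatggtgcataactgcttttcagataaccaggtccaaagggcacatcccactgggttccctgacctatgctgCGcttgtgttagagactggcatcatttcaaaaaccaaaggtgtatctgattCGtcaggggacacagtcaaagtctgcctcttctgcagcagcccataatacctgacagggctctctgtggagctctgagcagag
Srd5a1 (chr13:69611414-69611713, minus strand): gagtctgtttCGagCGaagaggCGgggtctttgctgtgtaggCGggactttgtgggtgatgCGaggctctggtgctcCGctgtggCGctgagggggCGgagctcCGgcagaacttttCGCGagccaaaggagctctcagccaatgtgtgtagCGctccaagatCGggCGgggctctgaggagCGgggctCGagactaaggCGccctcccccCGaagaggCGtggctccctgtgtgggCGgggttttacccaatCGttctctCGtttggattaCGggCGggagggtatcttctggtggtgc
The Srd5a1 promoter held 24 CG pairs in 300 bases at 63.0% G and C, against 1 pair and 43.7% for Hsd17b6 and 3 pairs and 47.0% for Hsd17b13. The other entries held 6 pairs (Hsd11b1), 1 pair (Hsd3b5) and 0 pairs (Akr1c6 and the second annotated start of Hsd17b6), and Akr1c6 had the lowest share of G and C, 36.0%. The median promoter in the RefSeq table had 52.7% G and C.

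Short motifs of factors known to act on liver or steroid enzyme genes were searched on both strands of the 7 windows. The core of the cAMP response element, TGACG, was in 1 window, that of Hsd17b13, on the opposite strand. The base of this match farthest from the start lay 33 bases before the start, and 20.8% of the 32851 promoters in the table hold the core. The TATA box TATAAA was in 1 window, that of Akr1c6, 164 bases before the start (13.6% of promoters). The full cAMP response element TGACGTCA, which contains that core (1.79%), the NR5A receptor site AAGGTCA (4.72%), the STAT5 palindrome TTCNNNGAA (8.3%), the glucocorticoid receptor core TGTTCT (19.0%), the HNF1 core GTTAAT (7.1%) and the C/EBP pair TTGCGCAA (0.183%) were in 0 of the 7 windows. These matches describe letters in the printed windows and do not show binding.

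Estimated depth was 10300000 to 15000000 reads per library, and 15191 to 15564 genes were above 0. The hepatocyte markers Alb, Ttr, Apoa1, Serpina1c and Cps1 summed to 41300 to 55100 RPKM in WT and 40900 to 50600 in Gcg KO, which fits the liver label, with Cps1 lower in Gcg KO (1085 ± 115 and 615 ± 78.1 RPKM). Of the markers of other cell types, Lyve1 of the sinusoidal endothelium and Cfd of adipocytes were higher and Cela1, listed for exocrine pancreas, was lower. Cela1 fell from a mean of 21.3 to 14.1 RPKM, while the rest of the pancreas list was nearly absent. Cpa1, Prss2 and Pnlip were 0 throughout, and Ctrb1 never exceeded 0.0924 RPKM. Whether Cela1 stands for pancreas tissue here was not tested. Summed endothelial markers were 46.7 to 62.6 RPKM in WT and 52.6 to 81.7 in Gcg KO. Neutrophil markers varied widely within each group, with sums of 1.55 to 65.2 RPKM in WT and 1.42 to 54.7 in Gcg KO, and 0 of 3 tested passed. The part of the endothelial and neutrophil markers in the results was not tested. Markers of adrenal cortex, the main site of steroid synthesis outside the gonads, differed in level. Nr5a1 was listed at 0 in all 12 libraries, Cyp11a1 and Cyp11b1 were at most 0.0388 and 0.0379 RPKM, Star was at 0.397 RPKM in WT, and Cyp21a1 was at 1.94 RPKM in WT and above 0 in every library. Xist, the RNA of the inactive X chromosome of female cells, was at most 0.0171 RPKM. WT 6, Gcg KO 10 and Gcg KO 12 stood apart: Pck1, the gluconeogenic enzyme PEPCK, was at 504, 189 and 85.3 RPKM there and at 845 to 1444 RPKM in the other 9. Results for the 8 enzymes are therefore also given without these 3 libraries where the call changes.

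The 8 enzymes did not move as a set. Cyp17a1 fell, Hsd17b6 rose, and 6 did not pass the threshold (limma on log2(RPKM + 0.5), Benjamini-Hochberg adjustment over 11347 tested genes, threshold 0.05). Over all tested genes 1.92% were lower and 1.95% higher in Gcg KO, 3.87% in all, and 15.7% had an unadjusted p below 0.05 (8.75% higher and 6.96% lower). The median log2 fold change of the 8 was 0.022, beside 0.014 over all tested genes. In 1 of the 8, Cyp17a1, the groups did not overlap, as in 3.09% of all tested genes. These shares are background and not a test, since the 8 were chosen with earlier results of these data known.

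**Figure D1:**
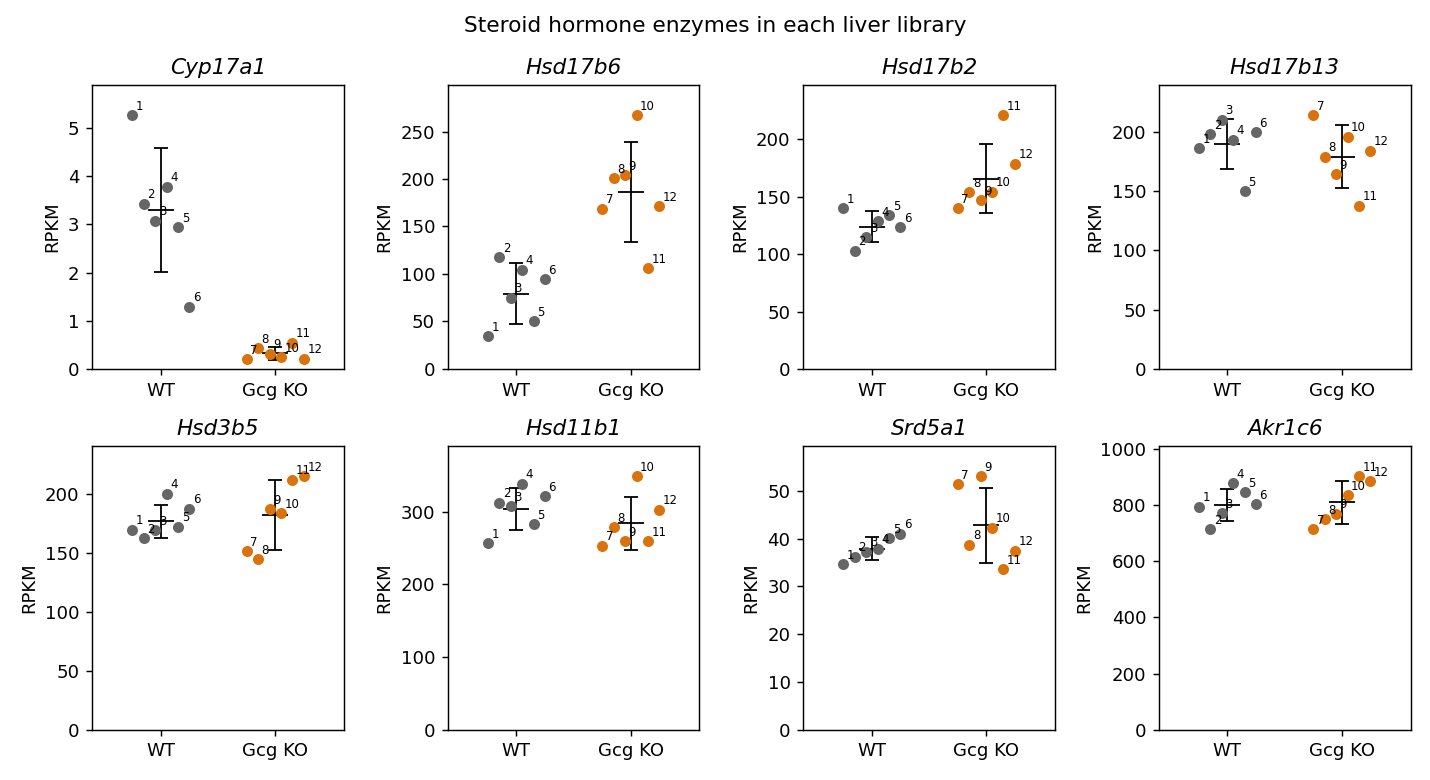
RPKM of the 8 enzymes in each library, with WT in grey, Gcg KO in orange, the library number beside each point, and black bars for the mean and SD of each group (n = 6 per group). Cyp17a1 is the 1 enzyme with no overlap, and Hsd17b6 and Hsd17b2 each have 5 of 6 Gcg KO libraries above the highest WT library.

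Cyp17a1 was the least abundant of the 8 in both groups. It encodes the P450 that hydroxylates progesterone and pregnenolone and cleaves their side chain to give androgen precursors, a reaction best known from adrenal and gonad. Its gene lies on chromosome 19 from 46667165 to 46673000 (GRCm38, Entrez 13074). RPKM was 5.27, 3.43, 3.08, 3.78, 2.94 and 1.29 in WT 1 to 6, and 0.205, 0.429, 0.320, 0.238, 0.542 and 0.211 in Gcg KO 7 to 12. Every Gcg KO library lay below every WT library, and WT 6, one of the 3 libraries that stood apart, was the lowest of its group.

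Mean Cyp17a1 was 3.30 ± 1.29 RPKM in WT and 0.324 ± 0.136 in Gcg KO (SD, n = 6 each), so the WT mean was 10.2 times the Gcg KO mean. On the log2(RPKM + 0.5) scale, which understates changes of low genes, it fell by 2.14 ± 0.22 (SE), or 4.40-fold (95% interval of the log2 fold change -2.62 to -1.66, limma adjusted p = 9.73e-05). The exact two-sided permutation test over 924 arrangements gave p = 0.00216, the smallest it can give. Converted with the 1815-base transcript, these values stand for about 27.6 to 139 reads in WT libraries and 3.9 to 10.8 in Gcg KO libraries, so the Gcg KO levels rest on few reads. Cyp17a1 kept its call in the 21 alternatives in which it was tested, with log2 fold changes from -2.95 at a pseudocount of 0.1 to -1.64 at a pseudocount of 1. In whole tissue, fewer cells expressing a gene and less RNA per cell cannot be told apart.

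The adrenal and gonadal pathway around Cyp17a1 was thinly represented. Of 10 genes listed for it, 3 passed the filter on low values, and limma called 0 of them (1 of 3 had an unadjusted p below 0.05, beside 15.7% of all tested genes). Fdx1, the ferredoxin that passes electrons to mitochondrial P450s, had a WT mean of 89.4 ± 12.9 RPKM and a Gcg KO mean of 77.5 ± 16.3 (limma adjusted p = 0.487), and Fdxr, its reductase, was at 8.64 ± 0.525 and 7.59 ± 0.884 (adjusted p = 0.259). Star, which brings cholesterol into mitochondria, averaged 0.397 RPKM in WT against 0.380 in Gcg KO. Of the adrenal cortex markers, summed at 1.52 to 3.97 RPKM in WT and 1.20 to 2.16 in Gcg KO, Cyp21a1 held most (1.94 ± 0.923 and 1.30 ± 0.293 RPKM), and 0 of 1 tested passed.

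Electron donors were measured as a further list. Cyb5a, the cytochrome b5 that aids the side-chain cleavage by Cyp17a1, averaged 927 ± 63.4 RPKM in WT against 887 ± 87.6 in Gcg KO (limma adjusted p = 0.755). Cyb5r3, the reductase of cytochrome b5, rose from 193.6 ± 10.3 to 248.3 ± 18.7 RPKM, a log2 fold change of 0.36 ± 0.06 (SE, adjusted p = 0.00519). Its WT libraries lay between 179 and 209 RPKM and its Gcg KO libraries between 226 and 275, without overlap. Of the 10 listed genes, all tested, 1 was higher and 0 lower, beside 1.95% and 1.92% of all tested genes. With an unadjusted limma p below 0.05 there were 3 higher and 1 lower, beside 8.75% and 6.96% of all tested genes.

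Hsd17b6 rose. It encodes a dehydrogenase of the retinol dehydrogenase family that oxidises androgen metabolites, and can return a weak androgen to dihydrotestosterone. The gene lies on chromosome 10 from 127990931 to 128007648 (Entrez 27400), and its promoter is the first printed above. RPKM was 34.5, 117, 75.1, 104, 50.2 and 94.5 in WT 1 to 6, and 169, 201, 204, 267, 106 and 172 in Gcg KO 7 to 12. Gcg KO 11 overlapped the WT range, and the other 5 Gcg KO libraries lay above the highest WT library.

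The Hsd17b6 mean was 79.4 ± 32.2 RPKM in WT and 186 ± 52.8 in Gcg KO (SD, n = 6 each), 2.35 times as high in Gcg KO. Its log2 fold change was 1.29 ± 0.29 (SE, 95% interval 0.67 to 1.91, limma adjusted p = 0.0236), and the exact two-sided permutation test gave p = 0.00433. The call sat close to the threshold. Without the 3 libraries that stood apart the log2 fold change was 1.24 and the adjusted p 0.0965. It was also lost without WT 3 (0.052), WT 5 (0.0562), Gcg KO 8 (0.0537), Gcg KO 9 (0.055) or Gcg KO 10 (0.0514) and with no filter on low values (0.0545), while the log2 fold change stayed between 1.08 and 1.44 in the 22 alternatives.

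Hsd17b6 shared 13.5% of the 50-base windows of its transcript with Rdh1 and Rdh16f1, which lie in the same gene cluster. How the authors divided reads in such windows is not known, so the level of Hsd17b6 is uncertain by that share. Rdh1 lay between 0.475 and 0.975 RPKM over the 12 libraries, far below Hsd17b6. Rdh19, which shared 8.62% of the windows, lay between 0.150 and 0.917 RPKM. The level of Rdh16f1 is not given here, so these values do not settle how much the shared reads matter. Of 11 tested retinol and sterol dehydrogenases related to Hsd17b6, limma called 0 (0 also at an unadjusted p below 0.05), and their median log2 fold change was -0.03. Rdh7, the most abundant of them, had a WT mean of 644 ± 39.6 RPKM and a Gcg KO mean of 624 ± 42.6 (limma adjusted p = 0.812), and Dhrs3, a retinal reductase, was at 94.9 ± 13.6 and 106 ± 11.8 (adjusted p = 0.473).

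Hsd17b2 and Hsd17b13 carry the same family name and have different tasks. Hsd17b2 (chromosome 8, 117700982 to 117759030, Entrez 15486) oxidises estradiol and testosterone to their less active ketones. It was at 140, 103, 115, 129, 134 and 123 RPKM in WT 1 to 6, and at 140, 154, 147, 154, 221 and 179 RPKM in Gcg KO 7 to 12. Gcg KO 7 fell just inside the WT range, and the other 5 Gcg KO libraries were above it. The means were 124.1 ± 13.5 and 165.9 ± 30.0 RPKM, a ratio of 1.34, and the log2 fold change of 0.41 ± 0.11 (SE, 95% interval 0.17 to 0.64) did not pass (limma adjusted p = 0.0595). Its exact permutation test, not adjusted over genes, gave p = 0.00433. With quantile normalization Hsd17b2 passed (log2 fold change 0.47, adjusted p = 0.016), the 1 call among its 22 alternatives.

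Hsd17b13 (chromosome 5, 103955442 to 103977388, Entrez 243168) is a protein of hepatocyte lipid droplets with retinol dehydrogenase activity. The 6 WT libraries ran from 150 to 210 RPKM with a median of 196, and the Gcg KO libraries from 138 to 214 with a median of 182. The groups overlapped almost fully, and WT 5 and Gcg KO 11 were the lowest of each group. The log2 fold change was -0.09 ± 0.11 (SE, 95% interval -0.32 to 0.14, limma adjusted p = 0.781). Among 10 tested lipid droplet genes 1 was higher and 0 lower, beside 1.95% and 1.92% of all tested genes. Unadjusted limma p-values below 0.05 were found for 3 higher and 2 lower, beside 8.75% and 6.96% of all tested genes. Plin2, the main droplet coat protein of liver, averaged 198.7 ± 29.0 RPKM in WT against 197.4 ± 25.0 in Gcg KO. Cidec, which fuses droplets, rose from 0.518 ± 0.206 to 2.19 ± 1.38 RPKM (log2 fold change 1.30 ± 0.26 SE, adjusted p = 0.0125), and did not pass without the 3 libraries (0.0759). Summed adipocyte markers were 7.30 to 12.3 RPKM in WT and 12.7 to 39.2 in Gcg KO, with Cfd higher (0.263 to 12.1 RPKM), Lep at 0 in all libraries and Adipoq at most 0.138 RPKM, and their part in the Cidec result was not tested.

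Of the 5 other 17-beta-hydroxysteroid dehydrogenases tested, limma called 0 (2 higher at an unadjusted p below 0.05, beside 8.75% of all tested genes), with a median log2 fold change of 0.16. Hsd17b4, the peroxisomal multifunctional enzyme of fatty acid oxidation, had a WT mean of 146 ± 18.4 RPKM and a Gcg KO mean of 163 ± 10.5 (limma adjusted p = 0.389). Hsd17b10, a mitochondrial dehydrogenase, was at 99.7 ± 11.5 and 105.2 ± 13.7 RPKM (adjusted p = 0.798).

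**Figure D2:**
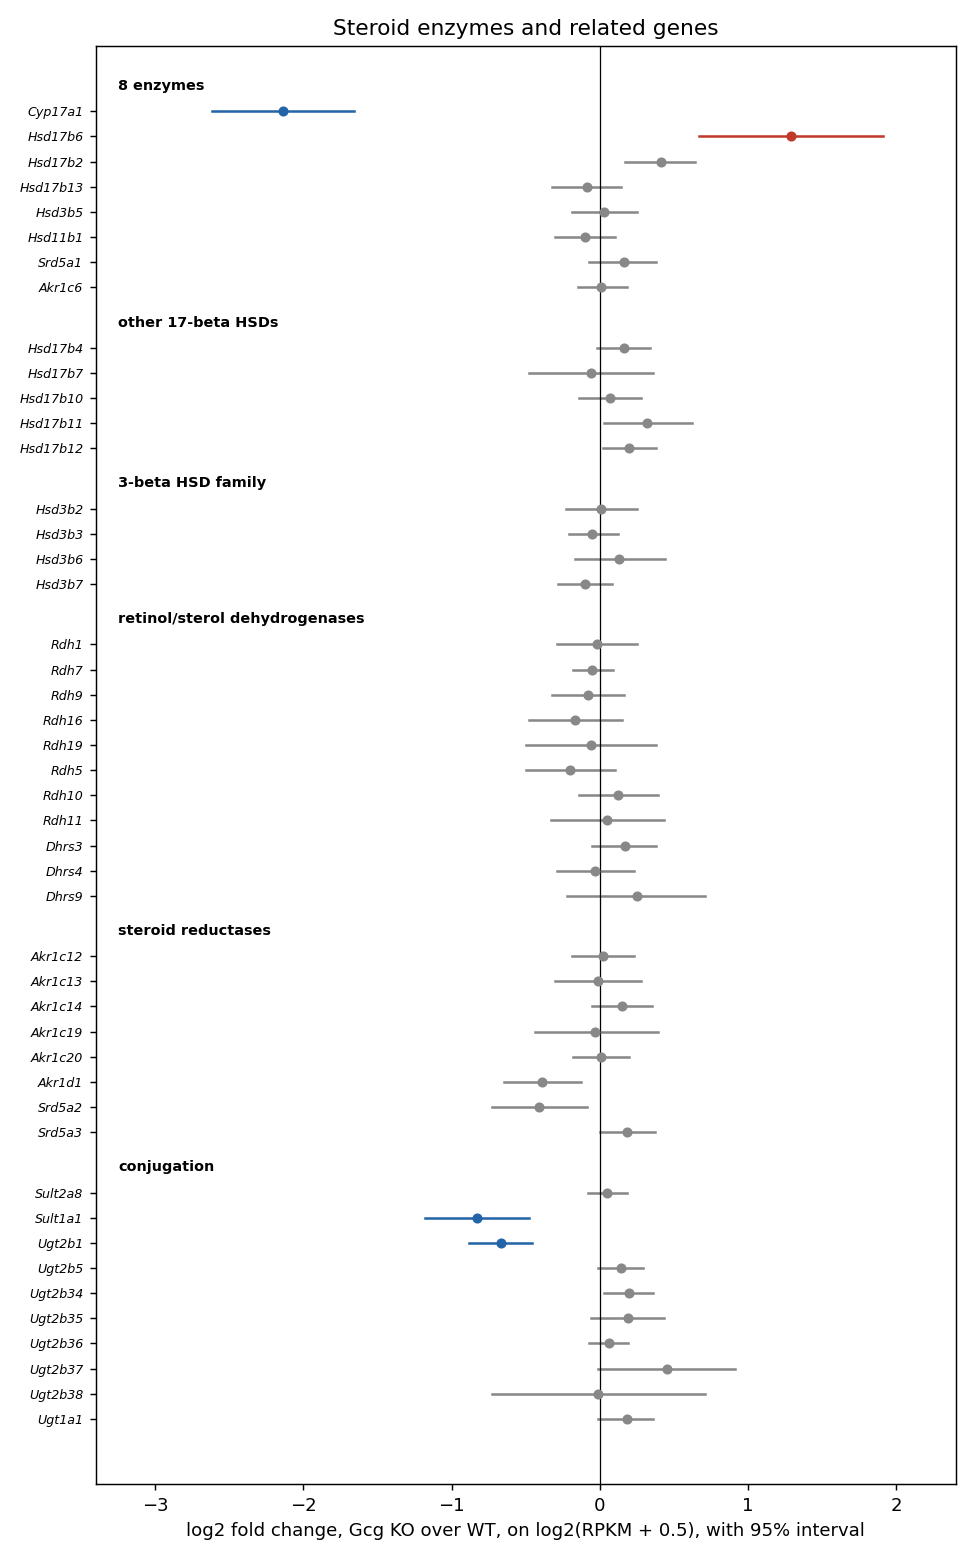
Log2 fold change of Gcg KO over WT, with its 95% interval, for the 8 enzymes and for the tested genes of 5 related lists, with red for higher, blue for lower and grey for genes that did not pass. Among the related genes Sult1a1 and Ugt2b1 are blue and 0 are red.

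Hsd11b1, which activates glucocorticoids, did not pass the threshold. The gene (chromosome 1, 193221640 to 193264045, Entrez 15483) encodes the enzyme that converts inactive 11-keto glucocorticoids to corticosterone in liver. It ran from 257 to 339 RPKM in WT with a median of 310, and from 253 to 349 in Gcg KO with a median of 269, so the Gcg KO range covered the WT range. Its means were 303 ± 29.2 and 284 ± 36.7 RPKM, and the log2 fold change was -0.10 ± 0.09 (SE, 95% interval -0.30 to 0.10, limma adjusted p = 0.677). Hsd11b2, which carries out the reverse step in kidney, was listed at 0 in all 12 libraries. H6pd, named here after its values were seen, supplies NADPH to Hsd11b1. It averaged 95.3 ± 6.67 RPKM in WT against 115.5 ± 13.3 in Gcg KO, without overlap, and missed the threshold (log2 fold change 0.27 ± 0.08 SE, adjusted p = 0.0799).

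Among 14 glucocorticoid-induced genes, all tested, limma called 0 (1 higher and 3 lower at an unadjusted p below 0.05, beside 15.7% of all tested genes), with a median log2 fold change of -0.43. Their log2 fold changes ran from -3.32 to 0.57, and whether they reflect glucocorticoid action was not tested. Tat, tyrosine aminotransferase, had a WT mean of 1072 ± 299 RPKM and a Gcg KO mean of 537 ± 273 (limma adjusted p = 0.155). Pck1 was at 1113 ± 321 and 708 ± 460 (adjusted p = 0.407). Both were lowest in the 3 libraries that stood apart, and Pck1 is the gene by which these were set apart above. Without the 3 libraries Tat passed (limma adjusted p = 0.0015). It passed in 0 of the 12 fits that left out a single library (lowest limma adjusted p = 0.0823). Hsd11b1 in these 3 libraries, at 322, 349 and 303 RPKM, was within the range of the others or above it. Of 8 tested steroid receptors and binding proteins limma called 0 (1 of 8 at an unadjusted p below 0.05, beside 15.7% of all), among them the receptor chaperones Hsp90ab1 (294 and 298 RPKM) and Hsp90aa1 (79.4 and 86.1 RPKM).

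Hsd3b5 (chromosome 3, 98618636 to 98645534, Entrez 15496) is a 3-ketosteroid reductase known as a marker of male mouse liver. WT libraries ran from 163 to 200 RPKM with a median of 171, and Gcg KO libraries from 145 to 215 with a median of 186. Gcg KO libraries lay both above and below the whole WT range. The log2 fold change was 0.03 ± 0.10 (SE, 95% interval -0.19 to 0.25, limma adjusted p = 0.939), and it was -0.02 without the 3 libraries. Hsd3b5 shared 21.2% of its 50-base windows with other genes, chiefly Gm10681 and Hsd3b4. Hsd3b4 was above 0 but below 0.0001 RPKM in 9 libraries and reached 0.577 RPKM in another. At these depths 0.0001 RPKM is less than 1 read, so reads of such genes were not counted as whole. The 4 tested other members of the 3-beta-hydroxysteroid dehydrogenase family, Hsd3b7 (284 and 265 RPKM) and Hsd3b3 (163 and 158 RPKM) the most abundant, included 0 called by limma and 0 with an unadjusted p below 0.05.

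Srd5a1 (chromosome 13, 69573449 to 69611485, Entrez 78925) is a steroid 5-alpha-reductase, which inactivates glucocorticoids and turns testosterone into dihydrotestosterone. In WT it ran from 34.7 to 41.0 RPKM with a median of 37.6, the narrowest relative spread of the 8 (coefficient of variation 6.26%). In Gcg KO it was 51.4, 38.8, 53.1, 42.3, 33.7 and 37.5 RPKM in libraries 7 to 12 (18.4%). Gcg KO 7, 9 and 10 lay above the WT range, Gcg KO 11 lay below it, and whether the spreads differ was not tested. The log2 fold change was 0.16 ± 0.10 (SE, 95% interval -0.07 to 0.38, limma adjusted p = 0.529). Srd5a1 shared 16.5% of its 50-base windows with Gm17108.

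Akr1c6, an aldo-keto reductase that acts on the 17-beta position of steroids, was the most abundant of the 8 (chromosome 13, 4434311 to 4457530, Entrez 83702). Its WT libraries ran from 714.5 to 878 RPKM and its Gcg KO libraries from 714.7 to 903, and 99.1% of tested genes were below it in WT. With a mean of 801 ± 57.3 in WT and 809.8 ± 76.7 in Gcg KO, its log2 fold change was 0.01 ± 0.08 (SE, 95% interval -0.15 to 0.18, limma adjusted p = 0.966). It was -0.03 without the 3 libraries. In the list of other aldo-keto and steroid reductases 8 were tested and limma called 0 (1 higher and 2 lower at an unadjusted p below 0.05, beside 15.7% of all tested genes). Akr1c14, a 3-alpha-hydroxysteroid dehydrogenase, averaged 129.8 ± 12.7 RPKM in WT against 144.6 ± 19.9 in Gcg KO, and Akr1c20 was at 55.9 ± 2.30 and 56.7 ± 8.15.

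The order of levels in WT, highest first, was Akr1c6, Hsd11b1, Hsd17b13, Hsd3b5, Hsd17b2, Hsd17b6, Srd5a1 and Cyp17a1. Hsd3b5, Srd5a1 and Hsd17b6 shared 21.2%, 16.5% and 13.5% of their windows with other genes. Their places beside genes of similar level are uncertain for that reason. Neighbours whose ranges overlapped in WT were Hsd17b13 with Hsd3b5, Hsd17b2 with Hsd17b6, and Hsd17b6 with Srd5a1. In Gcg KO Hsd17b6 stood between Hsd11b1 and Hsd3b5. There Hsd17b6, Hsd3b5, Hsd17b13 and Hsd17b2 had overlapping ranges and ratios of neighbouring means of 1.02 to 1.08. Mean Srd5a1 was 11.5 times mean Cyp17a1 in WT and 132 times in Gcg KO.

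**Figure D3:**
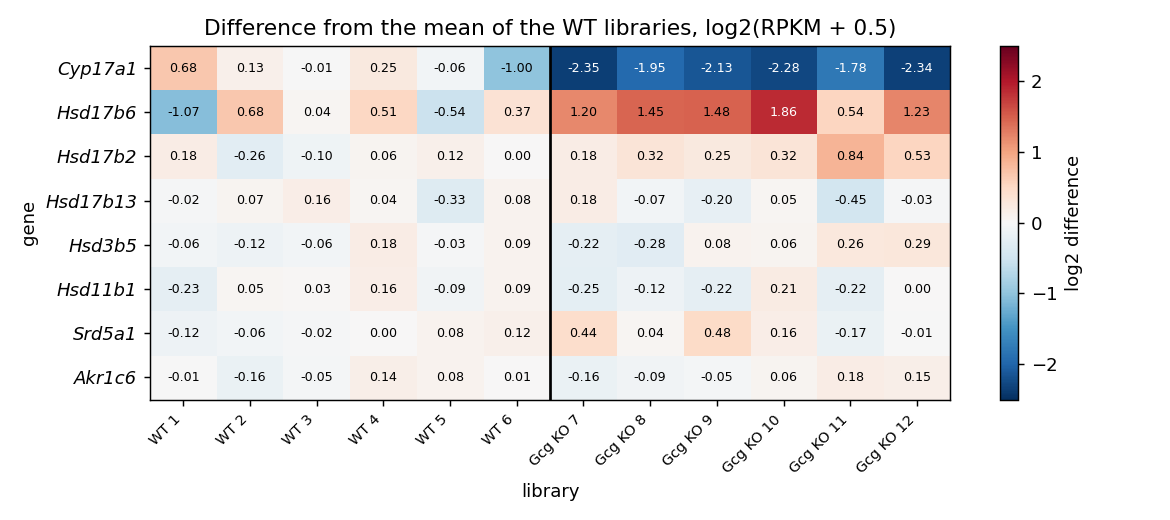
Difference of each library from the WT mean on log2(RPKM + 0.5), with 1 row per enzyme, 1 column per library and the value in each cell. Cyp17a1 is blue in all 6 Gcg KO libraries and Hsd17b6 red in all 6, Gcg KO 11 least of them at 0.54, and the lower 5 rows stay between -0.45 and 0.48.

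Within groups, some enzymes varied together. Each group was centred on its own mean of log2(RPKM + 0.5), so these values do not contain the difference between genotypes, and the 12 libraries share the depth scaling of RPKM. The 2 farthest libraries are those farthest from the median of the first-named enzyme of a pair. A library that is extreme for the second enzyme alone stays in. Over 28 pairs of enzymes, with permutation p-values (100000 draws within groups) adjusted over the pairs, Hsd3b5 and Akr1c6 gave Pearson r = 0.85 (permutation p = 0.00226, adjusted 0.0316) and Spearman rho = 0.85 (0.00242, adjusted 0.0339), and r was 0.85 without the 2 farthest libraries. Hsd17b2 and Akr1c6 gave r = 0.83 (permutation p = 0.00126, adjusted 0.0316) and rho = 0.84 (0.00198, adjusted 0.0339), and r was 0.92 without the 2 farthest. Hsd17b6 and Hsd11b1 passed by r (0.76, permutation p = 0.00362, adjusted 0.0338) and not by rho (0.71, permutation p = 0.0122, adjusted 0.114), with r at 0.64 without the 2 farthest. The 2 enzymes that passed the test between genotypes were Cyp17a1 and, close to the threshold, Hsd17b6. This pair gave r = -0.47 (permutation p = 0.223, adjusted 0.453) and rho = -0.22 (0.526, adjusted 0.691), and r was -0.07 without the 2 farthest libraries.

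The genes most like each enzyme over the same 12 centred libraries are given as a description, since they were picked as the highest Pearson r of all tested genes. Cyp17a1 was most like Serpina12 (0.904, and 0.740 without the 3 libraries that stood apart) and Sra1 (0.881 and 0.814). Hsd17b6 was most like Gclc, the catalytic subunit of glutathione synthesis (0.941 and 0.931), and Ppp2r3d (0.923 and 0.924). The highest value of the set joined Hsd17b13 to Dnajc12, a co-chaperone (0.976 and 0.975), followed for Hsd17b13 by Urgcp (0.895). Hsd3b3, a close relative of Hsd3b5, was the gene most like Akr1c6 (0.939 and 0.937), with Adamts10 next (0.936). For Hsd17b2 these were Ifi27l2a (0.938) and Ncapd2 (0.931), for Hsd3b5 Phpt1 (0.915) and Slc16a9 (0.899), for Hsd11b1 Tec (0.954) and Klkb1 (0.952), and for Srd5a1 Slc30a10 (0.902) and Wnk4 (0.885). Wnk4 was the 1 of these 16 that passed the test between genotypes (0.723 to 1.72 RPKM, limma adjusted p = 0.0179).

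Genes near each enzyme on its chromosome were also compared between the groups, and whether neighbours share a cause was not tested. The neighbours named here were chosen after their values were seen. Within 500 kb of Cyp17a1, 19 genes were tested, 1 was higher and 3 were lower, beside 1.95% and 1.92% of all genes. At an unadjusted p below 0.05 these counts were 1 and 6, beside 8.75% and 6.96%. The 3 lower ones lay together at 16.9 to 83.8 kb on 1 side: 2010012O05Rik (3.31 to 2.36 RPKM, limma adjusted p = 0.0193), As3mt, an arsenic methyltransferase (17.4 to 11.1 RPKM, adjusted p = 9.04e-04), and Cnnm2, a magnesium transport protein (2.78 to 1.97 RPKM, adjusted p = 0.0133). Their log2 fold changes of -0.40, -0.62 and -0.40 were smaller than the -2.14 of Cyp17a1. Wbp1l, 9.8 kb away on the other side, had a WT mean of 67.9 RPKM and a Gcg KO mean of 66.0 (adjusted p = 0.893), and Pcgf6, 360.6 kb away on the side of the lower genes, was the higher one (3.19 to 4.16 RPKM, adjusted p = 0.0484).

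Around Hsd17b6, 40 genes were tested within 500 kb. Limma called 0 higher and 3 lower, beside 1.95% and 1.92% of all tested genes. At an unadjusted p below 0.05 these counts were 0 and 6, beside 8.75% and 6.96%. Gls2, liver glutaminase, fell to 35.5 RPKM from 173 in WT, a log2 fold change of -2.31 ± 0.13 (SE, limma adjusted p = 4.3e-07) at a distance of 187.0 kb, and Apon and Coq10a fell by 0.30 and 0.38 on the log2 scale. Prim1, at 7.6 kb the closest of these, was at 1.72 and 1.76 RPKM. Near the other 6 enzymes 1 tested neighbour passed, Spp1 at 457.7 kb from Hsd17b13 (17.8 to 89.0 RPKM, adjusted p = 0.0112).

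**Figure D4:**
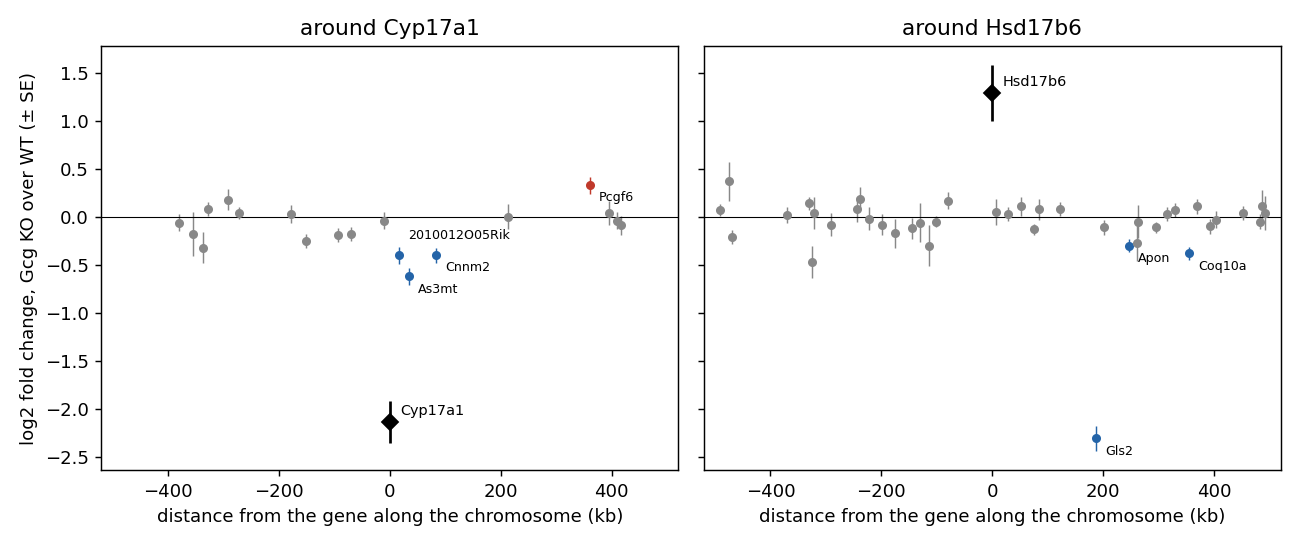
Log2 fold change (± SE) of tested genes within 500 kb of Cyp17a1 (left) and Hsd17b6 (right), by distance along the chromosome in kb, with the enzyme as a black diamond at 0 and genes that passed the threshold in colour and named. The 3 blue genes at left lie within 83.8 kb of Cyp17a1, and grey points did not pass.

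Of 10 tested genes of steroid conjugation and deconjugation, limma called 2 lower and 0 higher, beside 1.92% and 1.95% of all tested genes. The other 8 did not pass, and the median log2 fold change of the 10 was 0.10. Sult1a1, a sulfotransferase of phenols and estrogens, fell from 143.9 ± 15.7 to 83.1 ± 23.7 RPKM, by a log2 fold change of -0.83 ± 0.16 (SE, limma adjusted p = 0.0116). Ugt2b1, a glucuronosyltransferase, fell from 329 ± 42.7 to 207 ± 28.4 RPKM (-0.67 ± 0.10, adjusted p = 0.00136). In both, every Gcg KO library was below every WT library. Of 10 tested steroid-hydroxylating P450s limma called 0 (1 higher and 1 lower at an unadjusted p below 0.05, beside 15.7% of all tested genes). Cyp3a11 averaged 2171 ± 1430 RPKM in WT against 2906 ± 1210 in Gcg KO (adjusted p = 0.679), and Cyp2d9, a male-biased testosterone hydroxylase, was at 878 ± 61.7 and 982 ± 76.6 (adjusted p = 0.274).

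Sex-biased genes were set beside the enzymes because several of the 8 are known to depend on growth hormone. Of 17 male-biased liver genes, all tested, 2 were higher and 3 lower, beside 1.95% and 1.92% of all tested genes. The other 12 did not pass, and the median log2 fold change of the 17 was -0.08. Counts at an unadjusted limma p below 0.05 were 3 higher and 5 lower, beside 8.75% and 6.96% of all tested genes. Mup20, a major urinary protein whose reads may be shared with its paralogs, rose from 5928 ± 1100 to 15550 ± 4650 RPKM (limma adjusted p = 8.14e-04), and Slco1a1, an organic anion transporter, from 118 ± 18.7 to 187 ± 14.8 RPKM (adjusted p = 0.00151). Susd4 fell from 17.4 ± 1.21 to 11.3 ± 1.15 RPKM (adjusted p = 3.72e-04). Elovl3, a fatty acid elongase, fell from 380 ± 58.3 to 228 ± 65.1 (adjusted p = 0.0154), and Ugt2b1 fell as given above. Of 18 female-biased genes 8 were tested and limma called 0 (1 higher and 1 lower at an unadjusted p below 0.05, beside 15.7% of all). Among them were Prlr, the prolactin receptor, at 27.1 ± 4.79 and 17.4 ± 5.88 RPKM (adjusted p = 0.073), and Cyp2c69 at 8.80 ± 3.94 and 23.7 ± 19.3 RPKM (adjusted p = 0.218).

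Regulators of these genes were also tested. Of 11 tested genes of growth hormone signalling limma called 0 (1 higher and 3 lower at an unadjusted p below 0.05, beside 15.7% of all), with Ghr, the hormone's receptor, averaging 231 ± 20.9 RPKM in WT and 199.5 ± 20.0 in Gcg KO (limma adjusted p = 0.193). Igf1, its main target in liver, was at 126 ± 10.9 and 94.2 ± 23.0 RPKM (adjusted p = 0.0829). Of 12 nuclear receptors that act on steroid enzyme genes limma called 0 (2 higher and 2 lower at an unadjusted p below 0.05, beside 15.7% of all), with Hnf4a at 155 ± 8.94 and 158.5 ± 25.5 RPKM (adjusted p = 0.965) and Rxra at 77.6 ± 4.36 and 76.0 ± 6.97 (adjusted p = 0.89). Over all 15 pathway lists, 172 genes were listed and 131 tested, and 4 were higher and 4 lower in Gcg KO, against 1.95% and 1.92% of all tested genes.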

How the data were processed

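Whole-liver polyadenylated RNA from 6 WT and 6 Gcg KO libraries was analysed from 1 table of RPKM values deposited by the authors. CASAVA 1.8.2, FastQC and the build GRCm38 are named in the submitters' processing notes. The names of the aligner, counting tool and annotation were not given in the sources used here. Over the table, 1109 of 184325 values above 0 were below 0.0001 RPKM, under 1 read. Depth (10300000 to 15000000 reads) was estimated from the lowest common step of single-transcript genes. The main comparison used limma 3.58.1 under R 4.3.3 (mean-variance trend) on log2(RPKM + 0.5), for genes whose mean RPKM reached 0.5, with Benjamini-Hochberg adjustment over 11347 genes at 0.05. The fit was tested on simulated data. Coordinates are those of RefSeq on GRCm38, to which 24375 of 24475 identifiers (99.6%) matched.

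The 8 enzymes and the gene lists were chosen with earlier results of these data known. From each list up to 4 genes that passed were named, and where fewer than 2 passed, also the 1 or 2 of highest mean RPKM, and for each enzyme the 2 genes of highest group-centred r. Other genes named beside an enzyme were chosen after their values were seen. Alternatives were other pseudocounts, filters, normalizations and variance models, the fit without WT 6, Gcg KO 10 and Gcg KO 12, and leaving out each library. Shared sequence was counted as 50-base windows of GENCODE vM21 transcripts found in another gene.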

Additional observations from a re-analysis of the deposited data

Results flagged for a closer look

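A sample far from the others of its group was found for 7 of the 78 groups of values checked (8.97%), where chance gives about 1 in 20. The gap to the nearest library exceeded the critical share of the group's range (Dixon's test). Among the 8 enzymes this was Hsd17b13 in WT 5, at 150 RPKM, where the other WT libraries lay between 187 and 210. WT 5 was also apart for Ugt2b1, at 415 RPKM (others 302 to 326). Gcg KO 11 was apart for Ugt2b1, at 262 RPKM (others 182 to 206), and for Cyp3a11, at 681 RPKM (others 2420 to 3990). WT 6 was low for Tat, at 493 RPKM (others 1060 to 1340), and for Pck1, at 504 RPKM (others 1080 to 1440). Rxra in WT 2 was at 69.0 RPKM, and the others lay between 77.3 and 80.2.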

How the results depend on the processing

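The direction and call of Cyp17a1 held in the 21 alternatives that tested it; with only genes of mean RPKM of at least 2 it was not tested, so 0 of the 8 enzymes were lower there. The number of enzymes higher in Gcg KO, 1 (Hsd17b6), was 0 with no filter on low values, 2 with quantile normalization (Hsd17b2 joined) and 0 without the 3 libraries that stood apart, and it ranged from 0 to 1 when single libraries were left out. Genes called over the whole table numbered 439, and 277 (without WT 3) to 471 (without Gcg KO 11) when single libraries were left out. Scaling moved the median log2 fold change of all genes by less than 0.03. Small log2 fold changes that did not pass turned their sign. Without the 3 libraries this held for Hsd3b5 (-0.02), Akr1c6 (-0.03), Plin2 (0.06) and Rxra (0.03), with quantile normalization for Hsd3b3 (0.01), Plin2 (0.07) and Rdh7 (0.02), and with median-ratio scaling for Akr1c20 (-0.01). With single libraries left out the ranges were -0.02 to 0.09 for Hsd3b5, -0.02 to 0.05 for Akr1c6, -0.04 to 0.07 for Akr1c20, -0.05 to 0.08 for Hnf4a, -0.02 to 0.07 for Hsp90ab1 and -0.07 to 0.05 for Plin2. Igf1 (adjusted p = 0.0074) and Prlr (0.0206) passed without Gcg KO 11. The cause of these changes was not tested. No paired analysis was possible because the library numbers, 1 to 12, are not shared between the groups. Depth limits Cyp17a1 most, at 3.9 to 10.8 reads in Gcg KO libraries.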
